A study of Homo sapiens with 44 samples.

Results

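Kelly and NGP are both established human neuroblastoma lines with amplified MYCN, and their baseline transcriptomes were compared in cultures that had received only the solvent DMSO for 6 days. The members are the 3 Kelly and the 3 NGP input libraries of that time point, 6 of the 44 libraries of the series; they were chosen by line, treatment, time and library type alone. An input library is the RNA-seq library of a methylated-RNA immunoprecipitation experiment that was set aside before the pull-down. Per the labels, both lines were wild type, grew in RPMI1640 with serum, and gave poly(A) RNA that was sonicated and made into cDNA with a SMART kit. The study itself asked how 8 uM STM2457, an inhibitor of the m6A methyltransferase METTL3, acts on these cells. Its STM2457 inputs at 6 days (3 per line), its Kelly DMSO inputs at 1 day (3) and its vehicle-treated Kelly xenograft inputs at 14 days (2, Kelly cells grafted subcutaneously in nude mice) are used only beside the baseline values. Each line is 1 established culture, so a difference describes these lines and not classes of tumour, and the labels do not say whether the 3 libraries of a line came from separate cultures. The p-values therefore measure only the spread between these libraries, which may be technical.

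Neuroblastoma arises from the sympathoadrenal branch of the neural crest. Cells of that branch are recognised by the transcription factors HAND2 and GATA3, by the enzymes that turn tyrosine into noradrenaline, and by dense-core granules filled with granins and peptides. Neuroblastoma cultures are commonly placed on an axis from this adrenergic state to a mesenchymal state marked by PRRX1, FOSL1 and SNAI2. Amplified MYCN is often carried with other amplified segments, among them parts of 12q that hold the cell cycle kinase gene CDK4 and the ubiquitin ligase gene MDM2. DNA copy number is not analysed here, so the number of gene copies and the transcript level per copy cannot be told apart in any result below.

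The Kelly libraries held 12.09, 12.78 and 12.35 M counted fragments, and the NGP libraries 11.05, 5.59 and 10.05 M, with NGP replicate 2 the shallowest. The common biological coefficient of variation was 0.0629 within Kelly and 0.243 within NGP. Mitochondrial genes took 4.49% to 4.57% of the fragments in Kelly and 2.30% to 3.42% in NGP. The file headers place the 2 lines in different folders, so line and experiment cannot be told apart from the 6 libraries. Both lines carried the defining adrenergic genes, with HAND2 at 2574 and 2542 CPM in Kelly and NGP (mean of 3 libraries; CPM is the count per M fragments of the normalized library size). The blood, endothelial and epithelial genes PTPRC, CD3E, HBB, PECAM1 and CDH1 had no fragment in any of the 6 libraries. Over the 23 blood, endothelial, Schwann and epithelial markers in the tables, the summed levels were 1.83 to 16.8 CPM per list in Kelly and 0 to 7.3 CPM in NGP, carried mostly by KRT19 (13.4 to 15.3 and 0 to 0.862 CPM) and CD68 (8.56 to 12.8 and 3.45 to 6.46 CPM); their part in the results was not tested.

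Of 12940 genes tested, 7866 (60.8%) passed the threshold, an adjusted p (Benjamini-Hochberg, over all tested genes) below 0.05 in the quasi-likelihood test of edgeR. A share of 31.7% was higher in Kelly and a share of 29.1% higher in NGP, and the median log2 difference over all genes tested was 0.03. Differences are given throughout as Kelly minus NGP on the log2 scale ± standard error of the fit, with 3 libraries per line. At least 4-fold differences were called for 1878 genes (14.5%), with 9.31% of the tested genes higher in Kelly and 5.2% higher in NGP. A call as such is therefore common in this comparison, and the size of a difference carries more than its call. The shares of 31.7% and 29.1% are the background for each count of called genes in a list below. MYCN, the oncogenic transcription factor on chr2:15940550-15947007 (GRCh38), did not differ in these 6 libraries. Its level was 5643, 5528 and 5785 CPM in Kelly and 4902, 6124 and 5843 CPM in NGP. The 2 sets overlap, and the log2 difference was 0.01 ± 0.0923 (adjusted p = 0.949). In the STM2457 libraries MYCN was higher in Kelly by 0.62 (adjusted p = 0.0045). There Kelly had 6388, 6388 and 7327 CPM and NGP 4423, 4974 and 3726 CPM. Kelly at 1 day lay below the same NGP libraries (-1.0, given without a test).

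Genes for the enzymes and transporters of noradrenaline separated the lines, nearly all in 1 direction. Of 12 tested catecholamine genes, 10 were higher in Kelly, none was higher in NGP, and the median log2 difference was 3.38, against 0.03 over all genes. Among them TH, CYB561, SLC18A1, SLC18A2 and PNMT passed the filter on low counts through Kelly alone, so their direction followed from it. TH, tyrosine hydroxylase, the rate-limiting enzyme, lies on chr11:2163929-2171877. It stood at 1060, 1015 and 1007 CPM in Kelly and at 0.327, 1.21 and 0.936 CPM in NGP. TH transcripts were thus abundant in each Kelly library and close to the detection limit in each NGP library (log2 difference 10.42 ± 0.197, adjusted p = 3.28e-10). CYB561, the cytochrome that supplies electrons to vesicles for dopamine beta-hydroxylase, showed the same split. Its values were 313, 287 and 290 CPM in Kelly and 1.64, 0.517 and 1.03 CPM in NGP (7.97 ± 0.184). DBH, dopamine beta-hydroxylase, was instead expressed by both lines, at 1735, 1690 and 1726 CPM in Kelly and 129, 82.2 and 116 CPM in NGP (3.97 ± 0.15). The library values of the lines do not overlap for any of these 3 genes.

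DDC, the decarboxylase that makes dopamine, was also expressed by both lines, with 526, 479 and 503 CPM in Kelly and 80.4, 75.6 and 66.8 CPM in NGP. The vesicular monoamine transporter SLC18A1 stood at 56 to 57.4 CPM in Kelly and at 0.409 to 1.03 CPM in NGP. For the second transporter, SLC18A2, Kelly had 30.0 to 33.3 CPM and NGP at most 0.9 CPM, but 52.3% of its annotated length overlaps a neighbouring gene and the headers name no strand option. The degrading enzyme MAOA was higher in Kelly by 4.09 ± 0.232, and PNMT, which converts noradrenaline to adrenaline, was low in both lines (2.97 to 3.73 and 0.281 to 0.654 CPM). A smaller gap separated the lines for the noradrenaline transporter SLC6A2 (0.84 ± 0.128). GCH1, which makes the cofactor of TH, had 12.3 to 13.8 CPM in Kelly and 11.6 to 27.4 CPM in NGP and did not pass the test (-0.53 ± 0.278, adjusted p = 0.123; without NGP replicate 1 it was -0.80 with an adjusted p of 0.0107). In bulk RNA, fewer cells that express a gene and less RNA per cell cannot be told apart, which applies to TH and CYB561 in NGP as to every gene below.

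**Figure D1:**
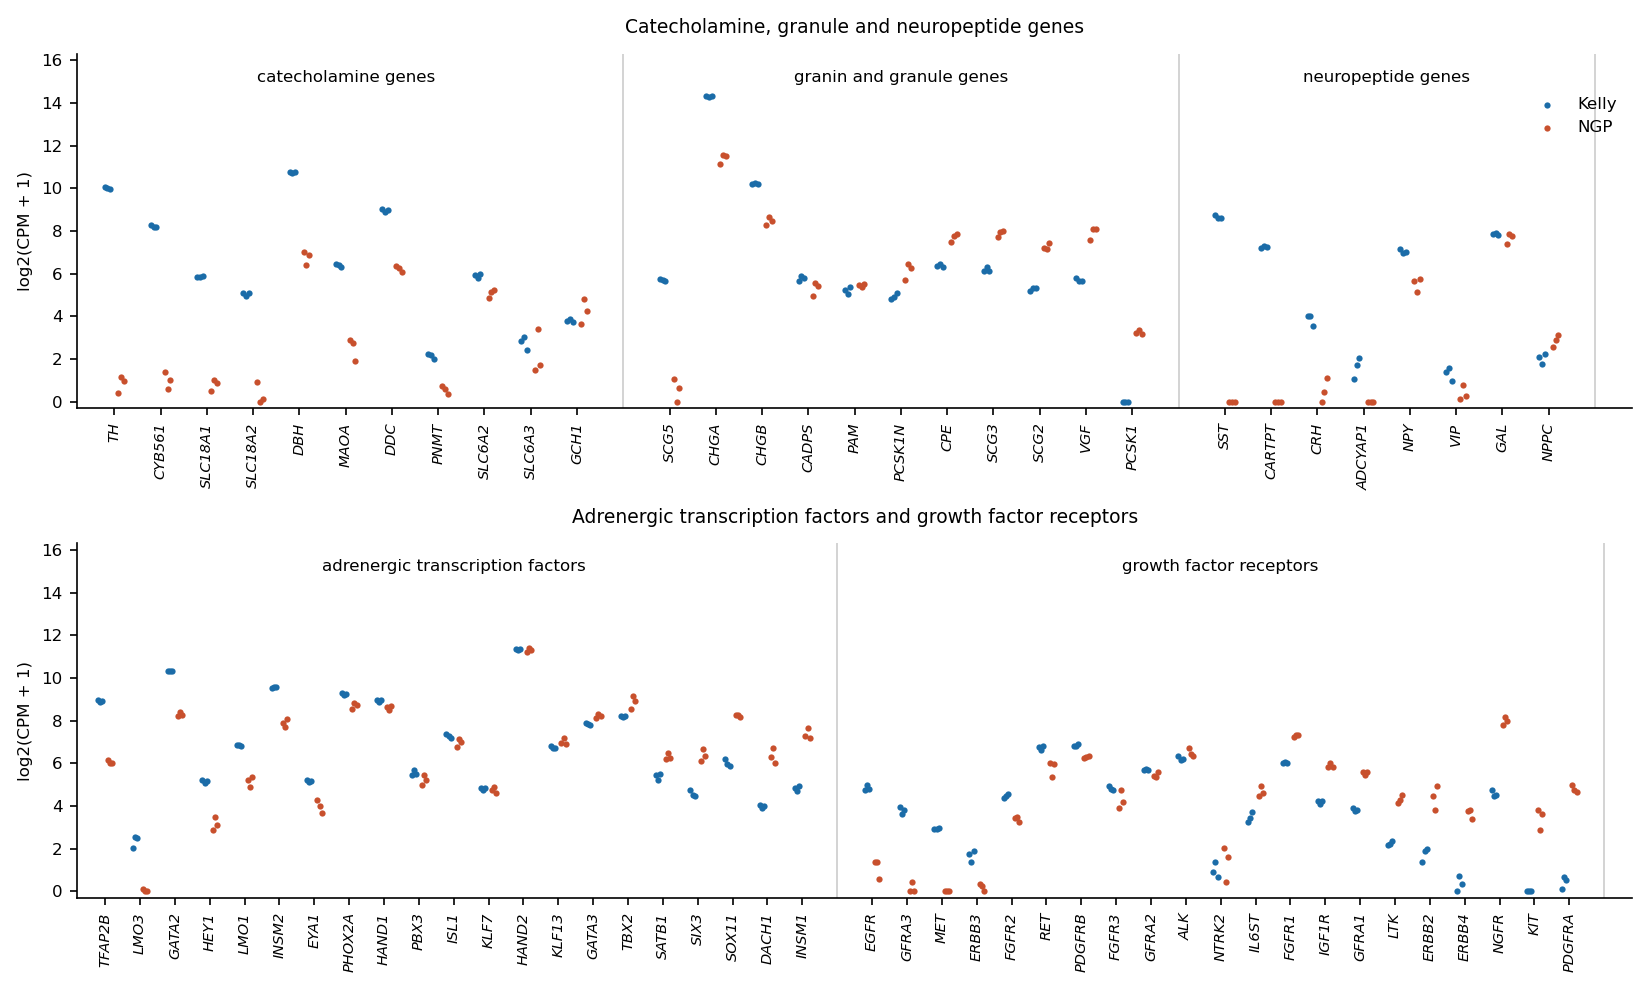
Level of tested genes of 5 lists as log2(CPM + 1) on the vertical axis, with 3 points per line (blue Kelly, orange NGP) and genes ordered by their difference within each list; the top panel shows catecholamine, granule and neuropeptide genes, the bottom panel adrenergic transcription factors and growth factor receptors. TH, CYB561, SST and CARTPT sit near 0 in NGP and high in Kelly, whereas the points of HAND2 overlap between the lines; some tested genes are not drawn.

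Granule genes moved in both directions. Of 11 tested granin and granule genes, 4 were higher in Kelly and 6 in NGP, where 31.7% and 29.1% of all genes were. The median log2 difference of the list was -1.26. CHGA, chromogranin A, was the gene with the largest share of fragments in each Kelly library (1.874% to 1.928%). It reached 20677, 19887 and 20446 CPM in Kelly and 2231, 2993 and 2946 CPM in NGP (2.90 ± 0.117, adjusted p = 2.13e-08). CHGB followed it (1.74 ± 0.101), and SCG5, the 7B2 chaperone of the prohormone convertase PCSK2, stood at 48.7 to 52.8 CPM in Kelly and at 0 to 1.06 CPM in NGP. SCG2, the precursor of secretoneurin, had the opposite order, with 35.2, 38.5 and 38.6 CPM in Kelly and 144, 139 and 171 CPM in NGP (-2.01 ± 0.108). SCG3, VGF and the peptide-trimming enzyme CPE were likewise higher in NGP, by -1.72 ± 0.102, -2.25 ± 0.144 and -1.35 ± 0.105. PCSK1, the prohormone convertase 1/3, had no fragment in the Kelly libraries and 8.26, 9.30 and 7.96 CPM in NGP. Against a floor of 3 counts per library, that is at least 32.8-fold higher in NGP.

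The peptides themselves were mostly on the Kelly side. Of 8 tested neuropeptide genes, 6 were higher in Kelly and 1, NPPC, in NGP, where 31.7% and 29.1% of all genes were. The median log2 difference was 2.54 with genes at 0 in a line set to the floor of 3 counts. For 3 of the 8, a line had no fragment, so their direction followed from the filter on low counts. CRH also passed that filter through Kelly alone. The NPPC call (-1.02) is lost without Kelly replicate 1, Kelly replicate 2 or NGP replicate 3 (-1.03, -0.85 and -0.84, adjusted p = 0.0775, 0.111 and 0.0861). SST, the somatostatin precursor on chr3:187668912-187670394, was present at 430, 382 and 386 CPM in Kelly and had no fragment in the 3 NGP libraries (at least 1150-fold). CARTPT, the precursor of the CART peptides on chr5:71719275-71721048, stood at 147, 158 and 152 CPM in Kelly and 0 in NGP (at least 438-fold). The gene of the receptor SSTR2, through which somatostatin acts, had the reverse order, at 7.19, 8.55 and 8.13 CPM in Kelly and 153, 182 and 176 CPM in NGP (-4.42 ± 0.123, adjusted p = 1.5e-09). The line with the peptide transcript thus had the lower receptor transcript. NPY, a peptide stored with noradrenaline, was expressed by both lines and was higher in Kelly at 6 days by 1.51 ± 0.141, while Kelly at 1 day, at 8.53, 9.61 and 7.48 CPM, lay below all NGP libraries (34.5 to 52.1 CPM). CRH, corticotropin-releasing hormone, was low, with 10.7 to 15.2 CPM in Kelly and 0 to 1.12 CPM in NGP.

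SST and CARTPT are shown by the 250 bases before their annotated start because both were on in Kelly and at 0 in NGP, and both contain the palindrome TGACGTCA, the full cyclic-AMP response element. The sequences are from RefSeq (GRCh38.p14), chr3:187670395-187670644 on the minus strand for SST and chr5:71719025-71719274 on the plus strand for CARTPT, read 5′ to 3′ with the palindrome in capitals.
SST: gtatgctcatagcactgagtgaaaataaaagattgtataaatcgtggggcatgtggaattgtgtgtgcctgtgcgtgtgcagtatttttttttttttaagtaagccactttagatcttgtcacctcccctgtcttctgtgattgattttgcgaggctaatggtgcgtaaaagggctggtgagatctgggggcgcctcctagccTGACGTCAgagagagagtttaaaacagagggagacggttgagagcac
CARTPT: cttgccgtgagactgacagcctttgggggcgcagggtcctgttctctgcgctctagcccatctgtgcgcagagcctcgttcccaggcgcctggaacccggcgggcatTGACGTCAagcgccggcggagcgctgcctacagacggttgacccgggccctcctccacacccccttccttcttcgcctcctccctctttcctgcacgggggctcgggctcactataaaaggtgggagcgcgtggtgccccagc
This motif, which reads the same on both strands, lies 47 bases before the start of SST and 143 bases before that of CARTPT. The palindrome occurs in 1.77% of the 27195 promoters of that table over the same 250 bases; both genes were shown after the match was seen, so that share is background and no comparison. A match describes these letters and says nothing of binding in either line. The peptide gene CRH and the enzyme gene TH are not in that promoter table.

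Adrenergic transcription factors differed in both directions, and HAND2 did not differ at 6 days. Of 23 tested, 10 were higher in Kelly and 9 in NGP, where 31.7% and 29.1% of all genes were. The median log2 difference of the list was 0.06. HAND2, a basic helix-loop-helix factor, had 2601, 2502 and 2620 CPM in Kelly and 2390, 2729 and 2507 CPM in NGP. It did not differ beyond the spread (0.02 ± 0.0786), and GATA3 was higher in NGP by only -0.38 ± 0.0786. PHOX2A was called higher in Kelly by 0.53 ± 0.0886, but an adjustment for GC content and length put it at -0.04. Larger gaps were those of GATA2, with 1299, 1264 and 1288 CPM in Kelly and 294, 342 and 305 CPM in NGP (2.03 ± 0.0846), and TFAP2B (2.87 ± 0.0841). INSM2, LMO1 and the Notch target HEY1 were higher in Kelly as well, by 1.66 ± 0.0962, 1.67 ± 0.128 and 2.16 ± 0.193, and LMO3 was detected at 3.1 to 4.82 CPM in Kelly against 1 fragment in all NGP libraries.

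On the NGP side stood SOX11, a factor of immature neurons, at 306, 302 and 289 CPM against 71.8, 61 and 58.4 CPM in Kelly. SOX11, INSM1 and DACH1 were higher in NGP by -2.23 ± 0.0973, -2.62 ± 0.138 and -2.46 ± 0.174, and TBX2 by -0.70 ± 0.137. The libraries of the lines do not overlap for any of these 4 genes. HAND2 was shared in the 6-day libraries only: Kelly at 1 day had 676, 728 and 672 CPM, below all NGP libraries.

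Genes of the mesenchymal state were low in both lines or split between them, except that TWIST1 was high in both. It stood at 536 to 563 CPM in Kelly and 855 to 1295 CPM in NGP, with 40.6 to 55.2 CPM in Kelly at 1 day. Of 36 listed, 20 passed the filter on low counts, and of these 7 were higher in Kelly, 9 in NGP and 4 did not pass the test (median -0.13). Another 10 were under 1 CPM in all 6 libraries. SNAI2, a zinc-finger factor of neural crest migration, was nearly silent in Kelly at 0.621, 0.249 and 0.437 CPM and stood at 12.5, 28.8 and 17.8 CPM in NGP (-5.45 ± 0.449). PRRX1, a defining mesenchymal factor, was low in both, at 0.083 to 1.05 CPM and 2.15 to 7.93 CPM (-3.22 ± 0.806). PDGFRA and the collagen gene COL3A1 were higher in NGP by -6.13 ± 0.361 and -3.66 ± 0.446, and LGALS1, TWIST1 and SPARC by -1.86 ± 0.114, -0.96 ± 0.131 and -0.94 ± 0.092. The receptor NOTCH3 went the other way, with 19.3, 15.7 and 19.4 CPM in Kelly and 0.491, 0 and 0 CPM in NGP. ANXA2 (4.04 ± 0.249) and VIM (0.88 ± 0.168) were also higher in Kelly, and CD44 was detected at 5.94 to 9.52 CPM in Kelly against 3 fragments in all NGP libraries.

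Growth factor receptor genes were divided between the lines. Of 22 tested growth factor receptors, 9 were higher in Kelly and 10 in NGP (median -0.58), where 31.7% and 29.1% of all genes were. MET, the receptor of hepatocyte growth factor, stood at 6.65, 6.64 and 6.73 CPM in Kelly and 0 in NGP (at least 19.2-fold). KIT, the stem cell factor receptor, had no fragment in Kelly and 13.2, 6.38 and 11.4 CPM in NGP (at least 39.8-fold). EGFR was present at 25.5, 30.6 and 27.1 CPM in Kelly and 1.55, 1.55 and 0.468 CPM in NGP. NGFR, the low-affinity neurotrophin receptor, was higher in NGP, at 221, 283 and 253 CPM against 26.1, 21.4 and 21.8 CPM (-3.45 ± 0.126). ERBB4, IGF1R and FGFR1 were higher in NGP by -5.14 ± 0.591, -1.74 ± 0.127 and -1.28 ± 0.0826. RET, the GDNF receptor kinase, was higher in Kelly by 0.94 ± 0.155, and its co-receptor GFRA3 was at 11.1 to 14.6 CPM in Kelly against 2 fragments in NGP. ALK, a kinase often mutated in this tumour, was expressed at 79.8, 70.6 and 72.5 CPM in Kelly and 104, 86.7 and 80.0 CPM in NGP. With an adjusted p of 0.0532 it missed the threshold, and 5 alternatives put it below, with adjusted p of 0.0116 to 0.0488 and the lower level in Kelly each time.

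HOX genes, which record position along the body axis, differed by cluster. Of 39 listed, 18 were tested, 8 were higher in NGP and 2 in Kelly (median -0.09), where 29.1% and 31.7% of all genes were. The count higher in Kelly was 4 without NGP replicate 2 and 1 without Kelly replicate 2, Kelly replicate 3 or NGP replicate 1. For 4 of the 18, a line had no fragment, so their direction followed from the filter on low counts. HOXA7 and HOXD11 also passed that filter through NGP alone. Several HOXA genes were on in NGP and at or near 0 in Kelly. HOXA7 stood at 29.3, 32.4 and 29.6 CPM in NGP against 1 fragment in all Kelly libraries, and HOXA11 at 16.4, 22.2 and 16.2 CPM against none (at least 70.5-fold). HOXA5 and HOXA10 were likewise at 0 in Kelly and at 1.90 to 4.68 and 2.58 to 8.14 CPM in NGP. HOXB genes had at most 5 fragments in any of the 6 libraries, and several HOXC and HOXD genes were on in both lines. HOXC9 and HOXD9 did not differ (-0.08 ± 0.168 and -0.02 ± 0.18). HOXC6 was higher in Kelly (0.68 ± 0.165), whereas HOXD11 stood at 0.612 to 2.04 CPM in Kelly and 13.3 to 17.2 CPM in NGP (-3.46 ± 0.377).

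**Figure D2:**
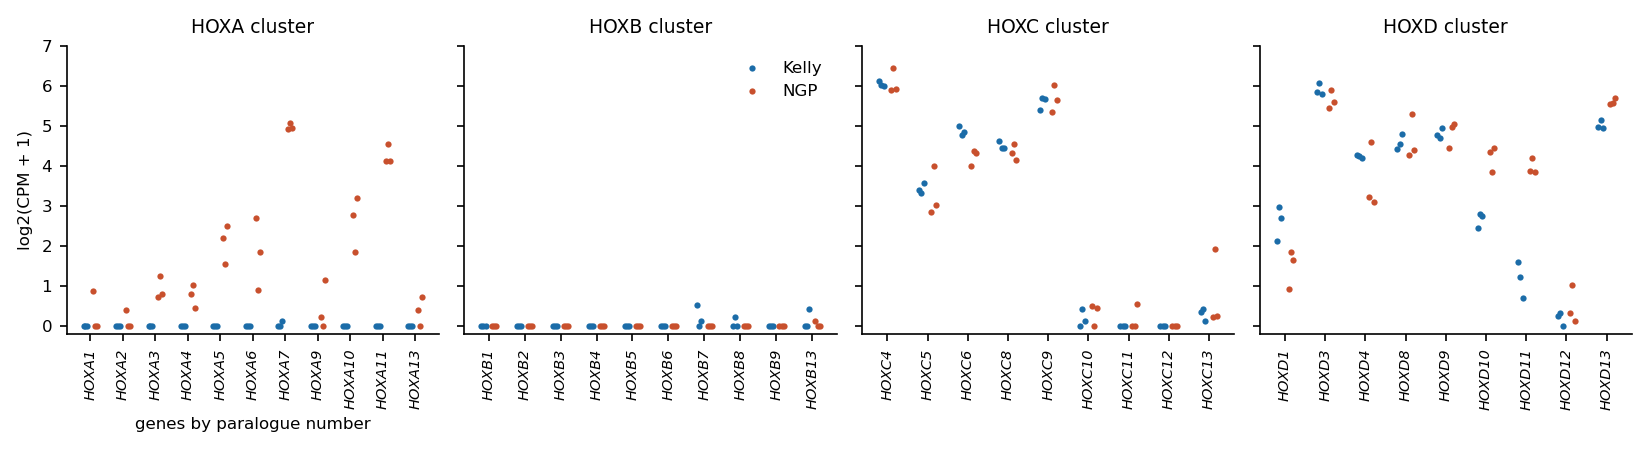
Level of all 39 HOX genes as log2(CPM + 1), 1 panel per cluster and 3 points per line (blue Kelly, orange NGP). In the HOXA panel the Kelly points lie at or near 0 while HOXA7 and HOXA11 are above 16 CPM in each NGP library; HOXB genes are near 0 in both lines, and the points of HOXC9 and HOXD9 overlap.

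HOXA7 and RPRM, a gene for a G2 arrest protein, are shown by their promoters because both were on in NGP and nearly silent in Kelly, and both promoters are rich in CG dinucleotides. RPRM stood at 112, 176 and 130 CPM in NGP and at 0.444, 0 and 0.262 CPM in Kelly. UBB, a polyubiquitin gene with the reverse pattern described further on, is shown beside them. The 250 bases are again from RefSeq (GRCh38.p14), 5′ to 3′, with each CG in capitals: chr7:27156676-27156925 on the minus strand, chr2:153478763-153479012 on the minus strand and chr17:16381040-16381289 on the plus strand.
HOXA7: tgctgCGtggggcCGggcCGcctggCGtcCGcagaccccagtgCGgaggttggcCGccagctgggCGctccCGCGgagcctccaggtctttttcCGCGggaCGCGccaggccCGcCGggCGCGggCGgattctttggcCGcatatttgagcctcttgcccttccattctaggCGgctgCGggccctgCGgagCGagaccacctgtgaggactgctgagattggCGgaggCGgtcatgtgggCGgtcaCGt
RPRM: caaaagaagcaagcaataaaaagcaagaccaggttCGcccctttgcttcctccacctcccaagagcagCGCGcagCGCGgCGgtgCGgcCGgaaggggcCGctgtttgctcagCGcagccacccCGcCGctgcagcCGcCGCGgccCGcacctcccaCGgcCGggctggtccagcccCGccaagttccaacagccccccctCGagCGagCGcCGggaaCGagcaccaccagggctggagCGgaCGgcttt
UBB: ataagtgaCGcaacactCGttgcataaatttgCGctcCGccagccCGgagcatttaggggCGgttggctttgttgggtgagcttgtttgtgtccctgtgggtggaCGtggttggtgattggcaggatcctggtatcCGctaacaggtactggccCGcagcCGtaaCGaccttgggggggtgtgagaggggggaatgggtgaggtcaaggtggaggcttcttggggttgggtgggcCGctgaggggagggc
For HOXA7 and UBB, the RefSeq start that places these bases lies inside the gene as the count tables give it (chr7:27153716-27157936 and chr17:16380798-16382745), so the bases precede that start and not the outermost one. They hold 28, 26 and 12 CG dinucleotides, where the median over the 27195 promoters of the table is 11. DNA methylation is not analysed here.

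The sharpest difference by position lay on 12q, in 3 short runs of neighbouring genes in which each gene of the scan was higher in NGP. Runs were defined on the 8914 genes with a mean of at least 10 CPM, of which 32.9% were called higher in Kelly and 32.0% higher in NGP, as stretches where the running median over 9 genes departed by at least 2 from the median of all. The first run spans chr12:57723761-59789855, from AGAP2 to SLC16A7, with 11 genes and a median log2 difference of -3.53. It took 0.036% to 0.038% of the fragments in Kelly and 0.324% to 0.384% in NGP. CDK4, which drives G1 with D cyclins, stood at 139, 135 and 133 CPM in Kelly and 1485, 1231 and 1429 CPM in NGP (-3.35 ± 0.0963, adjusted p = 1.91e-09). Its annotated length overlaps neighbours by 44.2%, and these neighbours differed in the same direction. TSPAN31, which runs into CDK4 tail to tail, had 5.94, 6.39 and 6.81 CPM in Kelly and 224, 203 and 233 CPM in NGP (-5.10 ± 0.114). CYP27B1 (-4.88 ± 0.178), the tRNA methyltransferase METTL1 (-3.52 ± 0.0908), CTDSP2 (-2.33 ± 0.0914) and AGAP2 (-2.16 ± 0.104) completed the named genes of the run. OS9, the gene just before AGAP2, had 152, 161 and 157 CPM in Kelly and 156, 187 and 162 CPM in NGP and did not pass the test (-0.10 ± 0.0903). Further out, SLC26A10 was again higher in NGP at a low level, 0.177 to 0.83 CPM against 4.12 to 8.62 CPM (-3.36 ± 0.569). Other genes, B4GALNT1 among them, overlap 73.3% of its annotated length, so its fragments may belong to them.

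The second run, chr12:68610855-70355257, holds MDM2 and reaches from RAP1B to CNOT2, with 9 genes and a median of -3.84. MDM2, the ubiquitin ligase gene, stood at 10.7, 9.88 and 6.38 CPM in Kelly and 166, 150 and 114 CPM in NGP (-3.99 ± 0.203). Its neighbours NUP107, YEATS4 and CCT2, which code for a nuclear pore protein, a chromatin reader and a chaperonin subunit, were higher in NGP by -4.34 ± 0.0894, -4.46 ± 0.121 and -3.58 ± 0.0887. CPSF6 and CNOT2, of mRNA cleavage and deadenylation, were higher by -2.43 ± 0.103 and -3.84 ± 0.102. At the near edge MDM1 did not pass the test (-0.53 ± 0.226, adjusted p = 0.063; without NGP replicate 2 it was -0.67 with an adjusted p of 0.00861). At the far edge KCNMB4 still differed, by -1.62 ± 0.191. RAB3IP lies inside the run but below the expression limit of the scan, with 12.5, 11.5 and 9.26 CPM in Kelly and 6.95, 5.17 and 5.99 CPM in NGP. Its order is the reverse of its neighbours' (0.86 ± 0.244), and the call is lost without Kelly replicate 1 (adjusted p = 0.0598). Over the whole list of 12q13 to 12q15 genes, 28 of 41 tested were higher in NGP and 4 in Kelly, with a median of -2.33.

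The third run lies far down the arm, at chr12:121308245-123409353, from ANAPC5 to KMT5A. Its 29 genes had a median of -3.15 and took 0.174% to 0.176% of the fragments in Kelly and 1.694% to 1.758% in NGP. CDK2AP1, an inhibitor of the S-phase kinase CDK2, stood at 160, 155 and 153 CPM in Kelly and 2500, 2868 and 2718 CPM in NGP (-4.11 ± 0.0901). KNTC1, of the spindle checkpoint, had 46.3, 44.7 and 46.7 CPM against 1043, 914 and 960 CPM (-4.40 ± 0.0928). The glucose-sensing factor gene MLXIP (-3.92 ± 0.0876), the histone methyltransferase gene KMT5A (-3.16 ± 0.0886), ANAPC5 (-2.77 ± 0.0876), RSRC2 (-2.68 ± 0.134) and ARL6IP4 (-2.29 ± 0.123) showed the same direction. CAMKK2, the gene next to ANAPC5 and just outside the run as defined, also differed (-3.20 ± 0.102). P2RX4, one gene further out, did not pass the test (-0.57 ± 0.341; without NGP replicate 3 it was -0.87 with an adjusted p of 0.0309). Beyond it P2RX7, another ATP receptor gene, had no fragment in Kelly and 3.35, 2.41 and 2.71 CPM in NGP (at least 10.9-fold). On the other side, RILPL2, the gene after KMT5A, was higher in Kelly by 0.54 ± 0.15 (its sign turned with Kelly at 1 day).

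**Figure D3:**
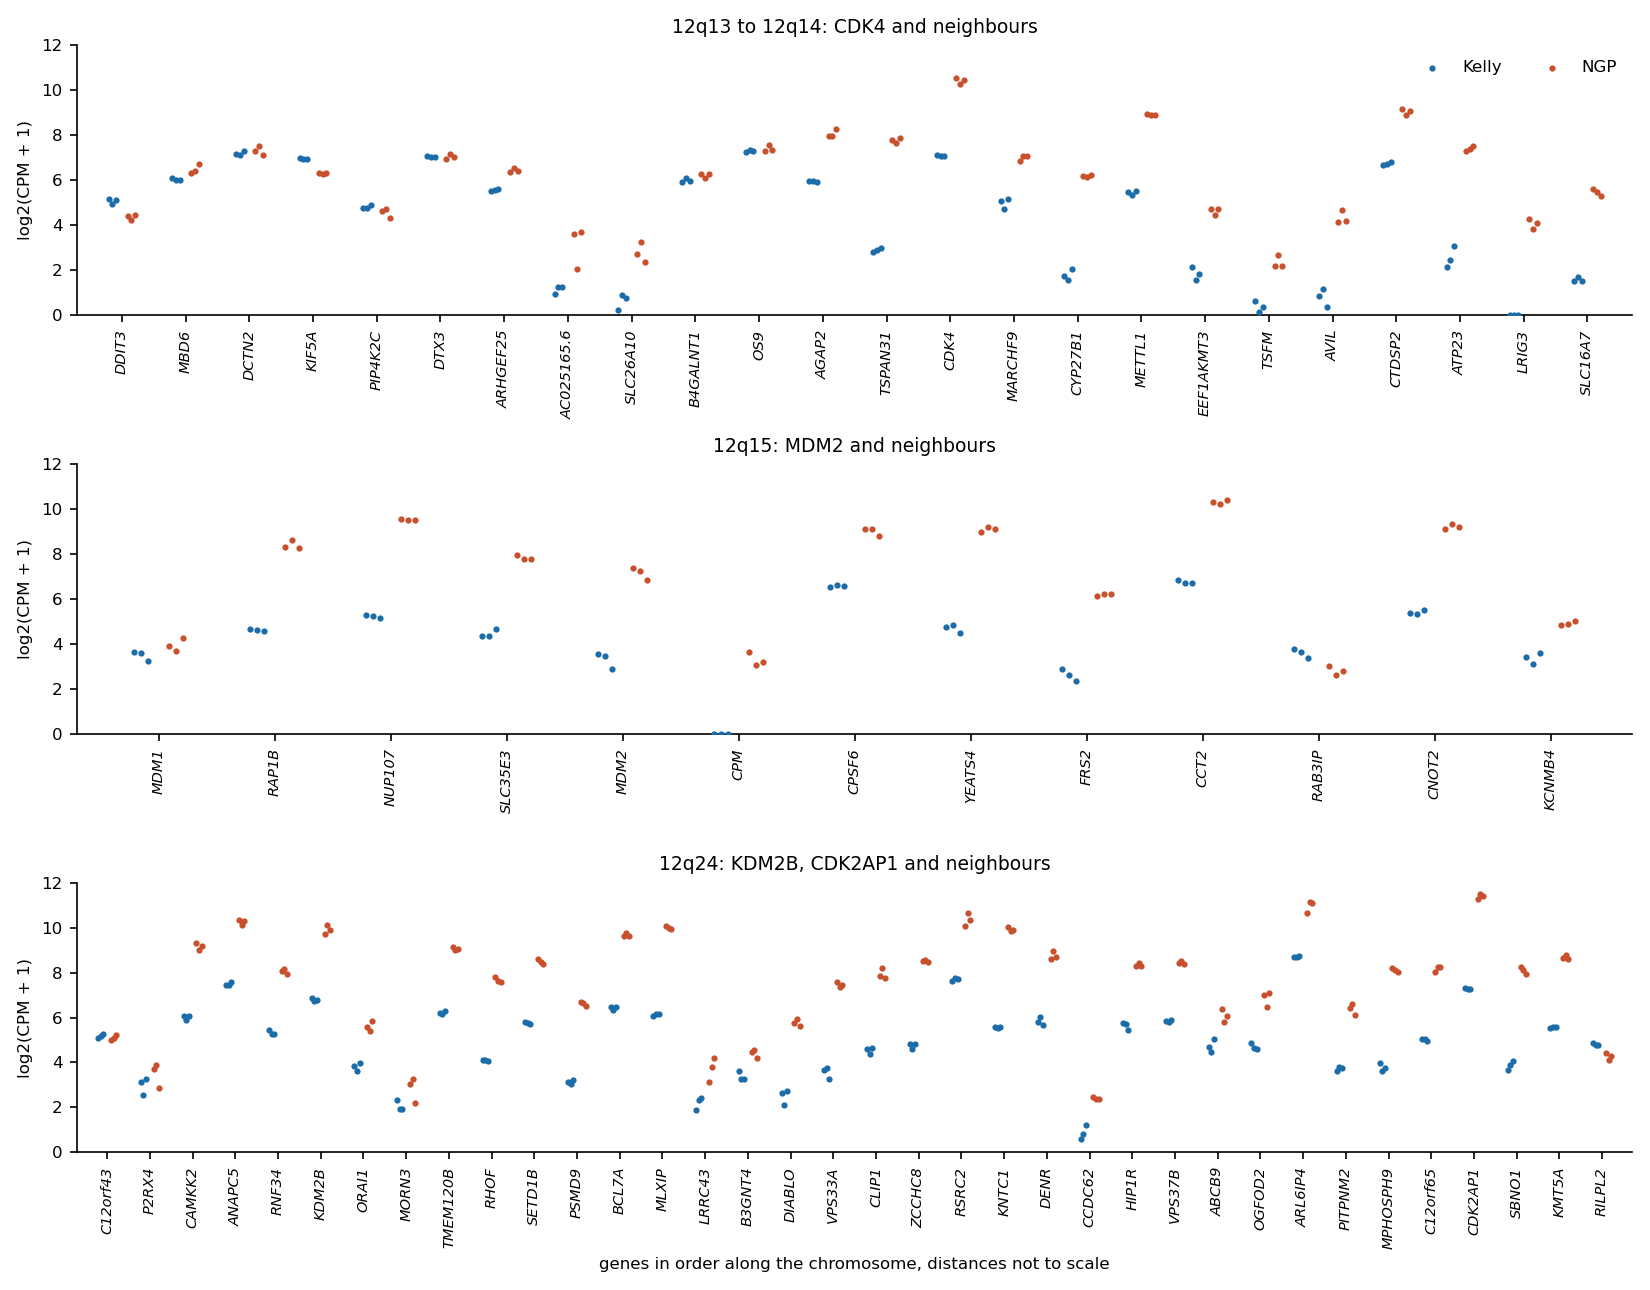
Level as log2(CPM + 1) of tested genes in order along 3 stretches of 12q, with 3 points per line (blue Kelly, orange NGP) and distances not to scale. OS9, MDM1 and P2RX4 mark the near edge of each run, where the lines overlap or lie close, and RILPL2 the far edge of the third; CDK4, MDM2 and CDK2AP1 lie inside.

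Other cell cycle regulators differed in both directions. Of 20 tested in a list of G1 and p53 regulators, which includes CDK4 and MDM2, 5 were higher in Kelly and 7 in NGP (median 0.02). These counts are close to the shares of 31.7% and 29.1% over all genes. CCND1, the cyclin D1 partner of CDK4, was higher in NGP at 397, 391 and 384 CPM against 150, 143 and 145 CPM (-1.42 ± 0.0747). CDKN2A, the locus of the CDK4 inhibitor p16 and of ARF, had 29.3, 25.4 and 25.6 CPM in Kelly and 299, 399 and 394 CPM in NGP (-3.76 ± 0.134); counts per gene do not separate the 2 products. The related inhibitor gene CDKN2C was higher in Kelly (2.89 ± 0.163), and CDKN1C stood at 28.1 to 28.6 CPM in Kelly and 0 to 0.749 CPM in NGP. This gap for CDKN1C was absent with Kelly at 1 day, where it had 0.192 to 0.299 CPM, within the NGP range. Kelly with STM2457 had 3.01 to 5.46 CPM of it. CDK6, the kinase paralogous to CDK4, did not differ (0.04 ± 0.128).

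In a list of p53 target genes of stress response, growth arrest, repair and apoptosis, 17 of 27 tested were higher in Kelly. Of the others, 4 were higher in NGP, among them MDM2 of the second 12q run (-3.99), and 6 did not pass the test. The median was 0.96, where 31.7% of all genes were higher in Kelly and 29.1% in NGP with a median of 0.03. CDKN1A, the p21 inhibitor of cyclin-dependent kinases, stood at 167, 142 and 159 CPM in Kelly and 59.0, 63.6 and 70.9 CPM in NGP (1.28 ± 0.103). The pro-apoptotic genes BBC3 and BAX were higher by 3.86 ± 0.253 and 1.72 ± 0.112, and the stress genes SESN2, PHLDA3 and FDXR by 4.16 ± 0.165, 3.15 ± 0.202 and 1.86 ± 0.13. With Kelly at 1 day, given without a test, these 5 genes in that order were at 1.02, 0.9, 2.65, 2.03 and 0.98. In the STM2457 libraries SESN2 was 1.82 and BBC3 6.18. TNFRSF10B, a death receptor, was at 53.8, 59.4 and 56.3 CPM in Kelly and 0.818, 0 and 0 CPM in NGP, and EDA2R at 10.2 to 10.7 CPM against 0 (at least 30.0-fold). Both genes passed the filter on low counts through Kelly alone. The phosphatase gene PPM1D was higher in NGP (-0.80 ± 0.167). BBC3 and BAX lie on 19q, an arm with a median of 0.47 (0.19 after adjustment for GC content and length).

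Around MYCN on 2p24 no gene was called higher in Kelly among 14 tested, and 5 were higher in NGP (median -0.21; 1 was higher in Kelly without NGP replicate 2). DDX1, the RNA helicase gene often amplified together with MYCN, was at 137, 143 and 131 CPM in Kelly and 164, 157 and 164 CPM in NGP (-0.24 ± 0.0794). That call is lost without Kelly replicate 1 or Kelly replicate 3, and the GC and length adjustment turned it to 0.18. NBAS, on the far side of DDX1, did not pass the test (-0.18 ± 0.14). FAM49A, the gene next to MYCN on its other side, was higher in NGP, at 67.1, 69.6 and 52.1 CPM against 15.1, 14.7 and 16.9 CPM (-2.01 ± 0.147), and GEN1 by -1.73 ± 0.203. Of 13 tested genes of the MYC family and its partners, 7 were higher in NGP and 2 in Kelly (median -0.40). MAX, the obligate partner, was higher in NGP at 75.2, 68.1 and 72.7 CPM against 42.1, 40.8 and 37 CPM (-0.85 ± 0.105), and the antagonist MXD4 was higher in Kelly (1.26 ± 0.115).

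Broader chromosomal blocks were found beyond the 12q runs as well. With a running median over 51 genes and a departure of at least 0.5 on the log2 scale, 32 blocks were found on 19 chromosomes, 18 higher in Kelly and 14 in NGP. They held 1823 of the 8914 genes (20.5%). All 32 kept their sign when recomputed in the STM2457 libraries, which share no sample with the DMSO libraries, and 30 did so after adjustment for GC content and length, 21 of them at 0.5 or more. Against Kelly at 1 day, with the same NGP libraries, 26 kept their sign. A kept sign is a loose criterion. When the scan was rerun, blocks of the same direction overlapped 19 of the 32 with Kelly at 1 day, 22 after adjustment and 30 with STM2457. They held 49.8%, 60.4% and 79.9% of the block genes. The median of a block's own genes can lie under 0.5, as in chr8:144423601-145066685 (0.22) and chr19:48180770-48836510 (0.24). Across genes the log2 difference had a Spearman correlation of 0.283 with GC content, and of -0.135 when Kelly at 1 day took the place of Kelly at 6 days; genes are not independent replicates. What part GC content has in a block was not tested beyond the adjusted values.

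On the Kelly side, one block lay in 3p, at chr3:44975241-57079329. There 89 of 102 genes were higher in Kelly and 1 in NGP, and the median was 1.06 (0.84 adjusted, 0.68 with Kelly at 1 day). Its called genes of highest mean CPM were RPL29, TKT and NT5DC2, with 2288, 518 and 483 CPM in Kelly and 1038, 337 and 181 CPM in NGP. On 22q, chr22:31618491-50783663, 104 of 136 genes were higher in Kelly and the median was 0.83 (0.60 adjusted). At the end of 19q, chr19:49976468-58573575, 62 of 70 genes were higher in Kelly with a median of 1.40, 0.99 after adjustment and 0.40 with Kelly at 1 day. RPL28, of the large ribosomal subunit, had 2840 CPM in Kelly and 596 CPM in NGP. The end of 12p, chr12:66767-7218574, was also higher in Kelly (0.78, 0.66 adjusted), where GAPDH stood at 7494 and 3719 CPM. Chromosome 12 thus held genes higher in Kelly on the short arm and higher in NGP on the long arm.

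On the NGP side, long blocks lay on chromosomes 2 and 9. In chr2:79185231-170084131, 119 of 145 genes were higher in NGP and the median was -1.12 (-1.0 adjusted, -0.75 with Kelly at 1 day). In chr9:37422666-120894896, 86 of 113 were, with a median of -1.15 (-0.95 adjusted). Both blocks cross the centromere. TMSB10, an actin-binding peptide gene, and RPL31 in the first had 486 and 693 CPM in Kelly and 1497 and 1445 CPM in NGP. Chromosome 9 changed direction along its length: its end, chr9:130578965-138124624, was higher in Kelly by 0.79 (0.44 adjusted) and contains DBH. In 11p, chr11:6603708-32105755, the median was -0.91 (-0.76 adjusted), and in 7q, chr7:100435282-111125454, it was -0.91 (-0.94 adjusted), and further along 7q lay 2 blocks that were higher in Kelly (0.72 and 0.68). A block of 171 genes on chromosome 4 had a median of -0.60, which was -0.30 after adjustment.

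By whole arms and without adjustment, 18p (0.83), 22q (0.63), 7p (0.48) and 19q (0.47) had the highest medians and 4q (-0.60), 2q (-0.51), 13q (-0.47) and 6q (-0.43) the lowest. After adjustment for GC content and length these became 1.04, 0.41, 0.49 and 0.19, and -0.30, -0.34, -0.20 and -0.09. The order changed with the adjustment: 3q (0.52) and 12p (0.51) then stood above 7p, 22q and 19q, and 19p (-0.34) and 11p (-0.31) were among the lowest. With Kelly at 1 day the sign of 19q turned (-0.14). In 22q 65.9% of 249 genes were higher in Kelly, and in 18p 18 of 32 genes were, with none higher in NGP. The 3 Kelly libraries deviated from the mean of all 6 by 0.293 to 0.319 in 22q and the NGP libraries by -0.321 to -0.279, so each library lay on its line's side. Besides 12q, the scan for short runs returned 2 histone clusters on 6p, of 7 genes each and with medians of -2.30 and -3.15. Histone transcripts mostly lack a poly(A) tail and these libraries were made from poly(A) RNA, so those values need not follow the cells' histone RNA.

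**Figure D4:**
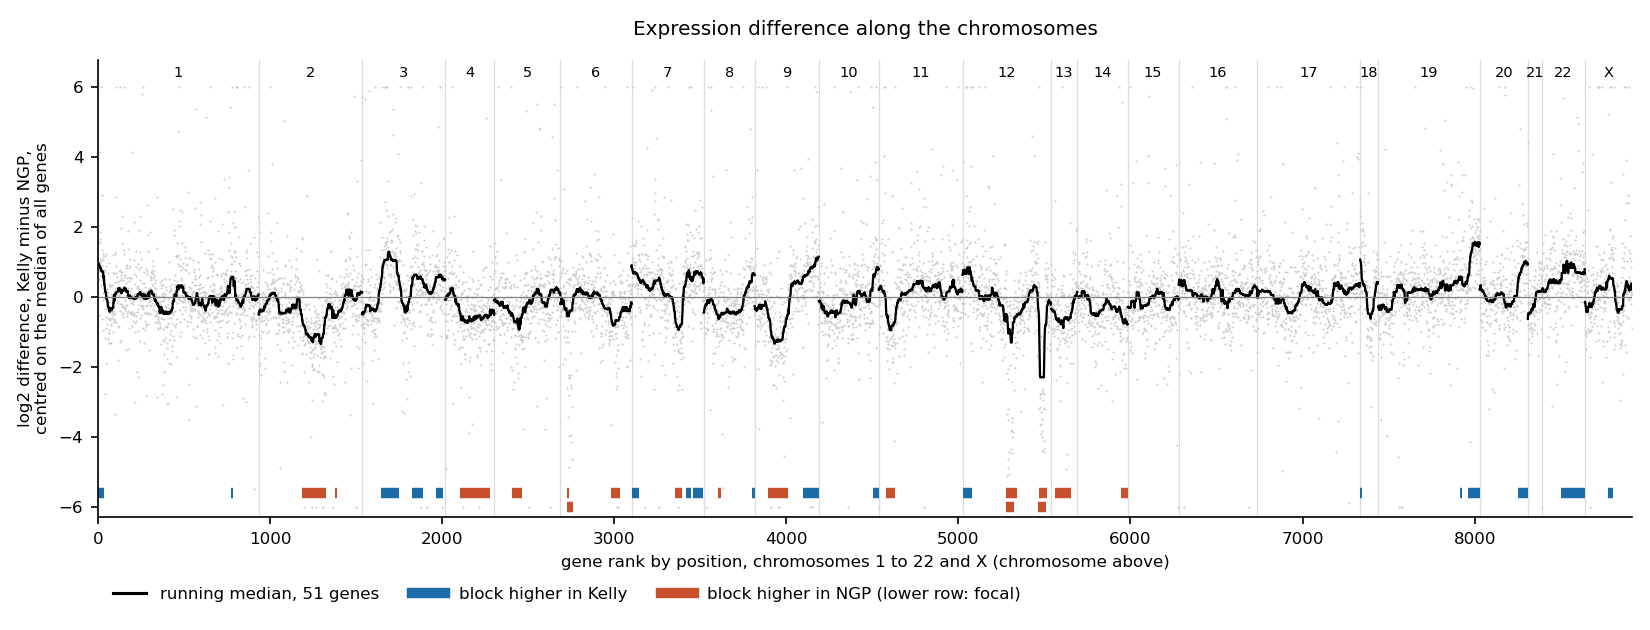
Log2 difference Kelly minus NGP, centred on the median of all genes, for 8914 genes in chromosome order (grey points, drawn at 6 or -6 where beyond), with the running median over 51 genes as a black line and blocks as bars (blue higher in Kelly, orange higher in NGP, lower row short runs). The line dips to below -2 on 12q, rises above 1 on 3p and at the end of 19q, and lies below -1 on parts of chromosomes 2 and 9.

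Some genes were on in 1 line and off in the other. By the limits of at least 10 CPM in all 3 libraries of a line and under 0.5 CPM in all 3 of the other, 113 genes were restricted to Kelly and 40 to NGP. FABP5, a fatty acid carrier, stood at 378, 417 and 373 CPM in Kelly against 1 fragment in NGP. UBB, on chr17:16380798-16382745, stood at 227, 212 and 226 CPM in Kelly and at 0.0818, 0.172 and 0 CPM in NGP. UBB and FABP5 have near-identical processed copies in the genome, so their absolute levels are uncertain. VSTM2L, PRSS21, RPL39L, GAGE12J, MAGEA10 and G0S2 followed SST, FABP5, UBB and CARTPT among the Kelly-restricted genes of highest level per length.

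In NGP, the restricted gene of highest level per length was RPRM, followed by FAM162B and PLAC9. NEUROG2, a proneural transcription factor and the next in that order, stood at 105, 121 and 92.6 CPM in NGP and at 0.0874 to 0.249 CPM in Kelly. NKX2-5, known from the heart field, had 27.5, 30.3 and 37 CPM in NGP and no fragment in Kelly (at least 122-fold). BARX1, GBX2 and HOXA7 are homeobox genes of the same set, and NPPA and COL26A1 complete the 10 of highest level per length. By the same on and off limits, 69 of the 113 Kelly-restricted and 31 of the 40 NGP-restricted genes were restricted in the STM2457 libraries as well. By a looser criterion, all 40 NGP-restricted genes were more than 5 times higher in every NGP than in every Kelly library treated with STM2457, and 111 of the 113 Kelly-restricted genes the reverse.

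Other Kelly experiments bear on the Kelly side of these sets. Of the 113, 109 were above 1 CPM in all 3 Kelly libraries at 1 day and 70 at 10 CPM or more; in the 2 xenograft libraries 112 were above 1 CPM and 81 at 10 CPM or more. Of the 40 NGP-restricted genes, 38 stayed under 0.5 CPM in all 3 Kelly libraries at 1 day and 29 in both xenograft libraries, where mouse reads may add to the counts. Levels within Kelly varied more than presence did. SST stood at 15.2, 15.3 and 14.4 CPM at 1 day and at 302 and 301 CPM in the xenografts, and CARTPT at 15.5 to 17.6 and at 466 and 460 CPM.

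**Figure D5:**
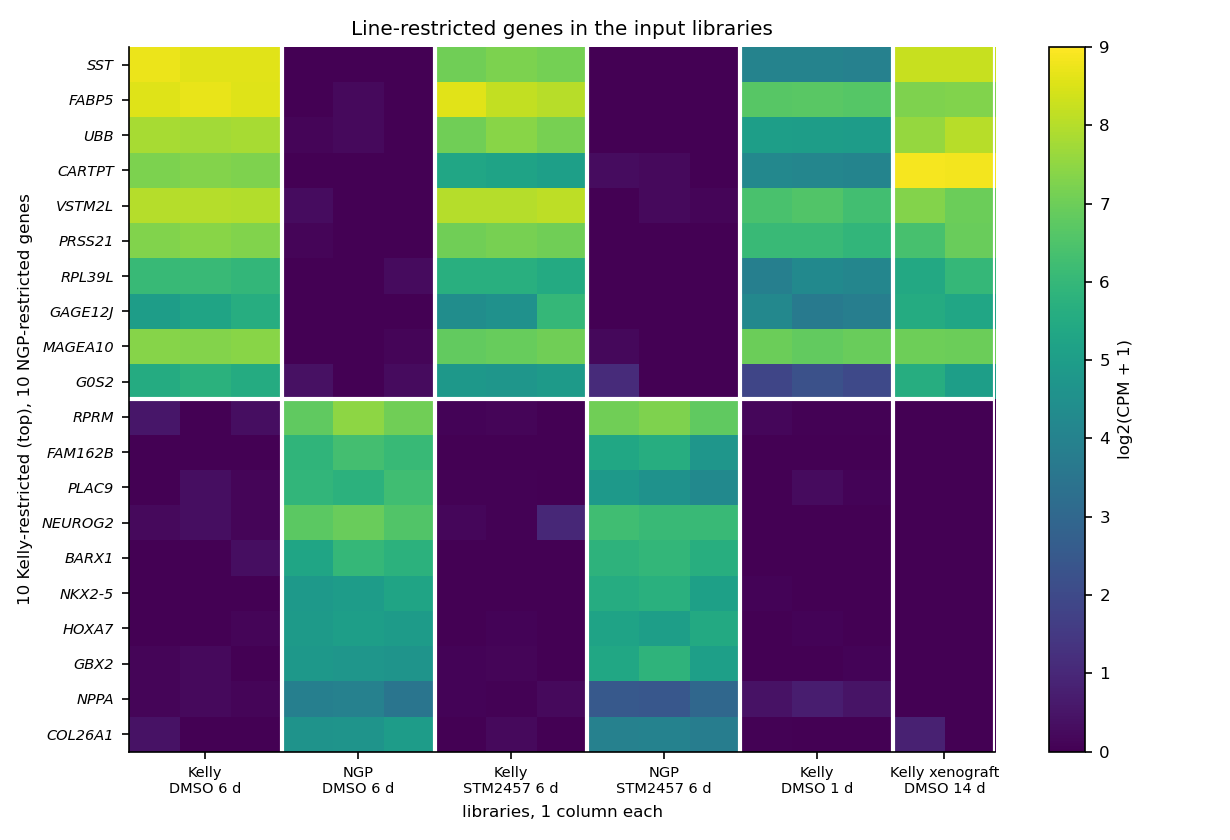
Level as log2(CPM + 1) (colour scale) of the 10 Kelly-restricted and the 10 NGP-restricted genes of highest level per length, 1 column per library in 6 groups. The upper genes are dark in both NGP groups and lit in all Kelly groups, with G0S2 low at 1 day, and the lower genes are lit in NGP only.

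The X chromosome held 16 of the 113 Kelly-restricted genes (14.2%) and 1 of the 40 NGP-restricted genes (2.5%), where 3.13% of the 9124 genes on in a line lie there. Several are cancer-testis genes, which are normally limited to germ cells. Of 85 such genes listed by name, 64 were under 1 CPM in all 6 libraries and 17 were tested. Of the 17, 15 were higher in Kelly and 1 in NGP, where 31.7% and 29.1% of all genes were. For 8 of the 17, a line had no fragment. These 8 passed the filter on low counts through the other line alone, so their direction followed from it. MAGEA10 also passed it through Kelly alone. The median was 4.47 with genes at 0 in a line set to the floor of 3 counts. The name rule also took SSX2IP, which is no cancer-testis gene. MAGEA1 stood at 63.6, 60.4 and 59.7 CPM in Kelly and 0 in NGP (at least 176-fold), and CTAG2, which codes for LAGE-1, at 14.9 to 18.8 CPM and 0 (at least 47.2-fold). MAGEA10 was at 162, 158 and 169 CPM in Kelly against 1 fragment in NGP. MAGEA6 had the reverse order, at 18.9, 17.4 and 17.6 CPM in Kelly and 40.6, 46.5 and 52.3 CPM in NGP (-1.37 ± 0.14). PRAME, on 22q, was expressed by both lines (1.39 ± 0.0972). Members of the GAGE, XAGE and MAGEA families are near-identical copies, so fragments may be split among them.

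Imprinted genes on several chromosomes were also mainly higher in Kelly where they differed by over 4-fold. Of 18 tested, 8 were higher in Kelly and 4 in NGP (2 without Kelly replicate 2, Kelly replicate 3 or NGP replicate 3). Over all genes the shares were 31.7% and 29.1%. At least 4-fold, 6 were higher in Kelly and 0 in NGP, where 9.31% and 5.2% of all genes were. The median of the list was 0.12. DLK1, a Notch-like ligand of immature sympathoadrenal cells, stood at 4898, 4805 and 4876 CPM in Kelly and 473, 468 and 579 CPM in NGP (3.26 ± 0.102). RTL1, its neighbour in the 14q32 imprinted cluster, was higher by 5.6 ± 0.25, although 14q32 as a block was higher in NGP. GRB10, MEST and NNAT had 66.0 to 71.9, 49.3 to 53.3 and 75.7 to 86.5 CPM in Kelly and 0 to 0.936, 0.491 to 0.689 and 1.03 to 1.88 CPM in NGP. IGF2 did not differ (0.01 ± 0.104), with 70.7% of its length overlapped by another gene.

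Surface and antigen presentation genes gave a mixed picture. Of 15 tested surface antigens and GD2 synthesis genes, 6 were higher in Kelly and 3 in NGP (median 0.19). Over all genes the shares were 31.7% and 29.1%. ST8SIA1, the GD3 synthase that feeds GD2, the target of antibody treatment in this disease, was low and higher in Kelly, at 6.65, 7.56 and 6.73 CPM against 0.572, 0.345 and 0.655 CPM (3.64 ± 0.413). B4GALNT1, the GD2 synthase, lies next to OS9 outside the first 12q run and did not pass the test (-0.24 ± 0.102; -0.32 with an adjusted p of 0.00518 without NGP replicate 2). GPC2 was higher in NGP (-0.85 ± 0.141) and CD276, the B7-H3 antigen, in Kelly (0.99 ± 0.126). Of 9 tested genes of class I presentation, 5 were higher in Kelly and 1 in NGP (3 in Kelly when all libraries were thinned to the lowest total; in NGP 0 without any one Kelly library and 2 without NGP replicate 1), with a median of 0.31. HLA-C stood at 29.4, 30.4 and 31.9 CPM in Kelly against 1 fragment in NGP, and the annotated copy is 1 allele of a variable gene, so fragments of other alleles may be missed.

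Axon guidance genes tilted to Kelly, with 35 of 61 tested higher there and 15 higher in NGP. Over all genes the shares were 31.7% and 29.1%. The median of the list was 0.94. EPHB3, an ephrin receptor, stood at 188, 191 and 181 CPM in Kelly and 7.03, 5.69 and 6.08 CPM in NGP (4.87 ± 0.115, adjusted p = 5.84e-10). EPHA10 was at 36.6 to 40.2 CPM against 0 to 0.749 CPM, and the ligand EFNA4 at 12.9 to 13.3 CPM against 0 (at least 37.7-fold). Of the netrins, NTN1 had 1.66 to 2.1 CPM in Kelly and no fragment in NGP (at least 5.56-fold), and NTN4 had no fragment in Kelly and, in NGP, 9.89, 4.65 and 10.0 CPM (at least 31.6-fold). The netrin receptor NEO1 and the Slit receptor ROBO1 were higher in NGP by -2.49 ± 0.234 and -1.87 ± 0.166. The neuropilins, co-receptors of semaphorins, split as well, NRP1 to Kelly (1.69 ± 0.184) and NRP2 to NGP (-1.38 ± 0.0874), with PLXNA1 higher in Kelly (1.40 ± 0.0795).

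Neuronal cytoskeletal genes were on in both lines. Of 18 tested, 9 were higher in Kelly and 5 in NGP (3 without Kelly replicate 1 or Kelly replicate 3), with a median of 0.37. Over all genes the shares were 31.7% and 29.1%. MAPT, which codes for tau, stood at 116, 110 and 114 CPM in Kelly and 12.5, 8.96 and 16.1 CPM in NGP (3.14 ± 0.167), and STMN4 was higher by 3.47 ± 0.346. MAP1B and the neuronal RNA-binding gene ELAVL4 were higher in NGP by -2.0 ± 0.0895 and -2.84 ± 0.117. The neurofilament gene NEFL and peripherin (PRPH) were higher in Kelly by 0.85 ± 0.0912 and 0.87 ± 0.118. Cholinergic genes, which mark the other transmitter of sympathetic neurons, were 4 of 8 higher in Kelly and 1 in NGP (2 without NGP replicate 3), with CHAT at 6.03, 4.40 and 6.47 CPM against 1.47, 1.21 and 0.0936 CPM (2.62 ± 0.632).

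Proliferation genes were mostly higher in NGP, and none differed by 4-fold. Of 30 tested, 19 were higher in NGP and 4 in Kelly, where 29.1% and 31.7% of all genes were. The median of the list was -0.50. TOP2A, of chromosome segregation, stood at 129, 143 and 137 CPM in Kelly and 426, 473 and 413 CPM in NGP (-1.68 ± 0.087), and BUB1, of the spindle checkpoint, differed by -1.91 ± 0.149. The 4 genes of the other direction are S-phase genes, led by TYMS (1.93 ± 0.0961) and MCM2, which had 746, 738 and 758 CPM in Kelly and 222, 169 and 237 CPM in NGP (1.83 ± 0.119). TYMS lies on 18p, in a block higher in Kelly, with 39.9% of its length overlapped by another gene, and MCM2 lies in a 3q block higher in Kelly. The proliferation genes higher in NGP were not set against the blocks, so what part position has in either direction was not tested. Growth rates were not given in the sources used here. The RNA-binding gene LIN28B, which blocks let-7 and is tied to MYCN, was higher in NGP by -0.77 ± 0.115; in its list of 6 tested genes 1 was higher in Kelly (0 without any one Kelly library or NGP replicate 3, 2 without NGP replicate 2) and 2 in NGP (median -0.41).

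Among 8714 genes with at least 5 CPM in all 6 libraries, 8 of the 10 with the largest excess in NGP lay on 12q: TSPAN31, YEATS4, MPHOSPH9, KNTC1, NUP107, SBNO1, CDK2AP1 and VPS33A, with MFAP4 and SSTR2 from elsewhere. MFAP4, a microfibril protein gene on 17p, stood at 10.9, 11.6 and 13.1 CPM in Kelly and 393, 323 and 393 CPM in NGP (-4.96 ± 0.125). The 10 largest in Kelly lay on 7 chromosomes and were S100A13, EPAS1, EPHB3, MXRA8, DBH, MAPK11, TTC9B, CGREF1, PRRX2 and ABLIM1. EPAS1, the hypoxia factor HIF-2 alpha and a gene typical of chromaffin cells, stood at 553, 569 and 557 CPM in Kelly and 18.2, 14.8 and 16.7 CPM in NGP (5.06 ± 0.102). S100A13 (5.39 ± 0.129) and MXRA8 (4.16 ± 0.128) were of similar order.

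The comparison could be repeated in libraries that share no sample with these 6, the STM2457-treated inputs of the same lines at 6 days. There 7039 of 12882 genes (54.6%) differed. Of 12645 genes tested in both, 5853 were called in both, which is 76.1% of the DMSO calls and 84.9% of the STM2457 calls, and 5832 of them had the same direction. Of 1718 DMSO calls of at least 4-fold, 1709 had the same sign and 1618 were called in the same direction. Across these genes the log2 differences of both comparisons had a Spearman correlation of 0.896, a description over genes that share 1 pair of lines. TH was at 473, 534 and 541 CPM in Kelly and 1.53, 2.79 and 3.56 CPM in NGP there, CDK4 at 137 to 147 and 1234 to 1757 CPM, and CDK2AP1 at 191 to 206 and 3084 to 4554 CPM. The log2 difference of TH was 7.65 there, smaller than the 10.42 with DMSO, and the lines did not overlap for any of these 3 genes. Some smaller DMSO calls named above did not pass with STM2457. Among them were RET (0.14, adjusted p = 0.316), SLC6A2 (0.23, 0.111), TBX2 (-0.09, 0.643) and GATA3 (-0.01, 0.939). These libraries come from the same folders as the DMSO libraries, so they do not separate line from experiment.

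Kelly at 1 day came from a further folder, and the NGP libraries set beside it are the same as above. TH stood at 481, 617 and 477 CPM, CHGA at 5680, 6300 and 5611 CPM and MYCN at 2957, 2994 and 2699 CPM. CDK4 was at 180, 176 and 176 CPM, TSPAN31 at 9.68 to 12.4 CPM, CDK2AP1 at 91.9 to 107 CPM and MDM2 at 34.8, 36.7 and 41.8 CPM, each below all 3 NGP libraries. HOXA11 had no fragment there, nor in the xenografts. Of 182 genes named here and called at 6 days, 16 had the opposite sign with Kelly at 1 day, given without a test: NPY, VIM, PHOX2A, IGF1R, HOXC6, PPM1D, RILPL2, DDX1, GEN1, LIN28B, CD68, MXD4, RPL29, PRPH, PSPH and CRABP2. A kept sign need not mean a kept difference: with Kelly at 1 day CHGB was 0.08, SPARC -0.03, INSM2 0.23 and LMO1 0.24. Other values moved within Kelly: NGFR was at 0.905 to 1.43 CPM at 1 day beside 21.4 to 26.1 CPM at 6 days, and CDKN2A at 3.05 to 3.72 CPM beside 25.4 to 29.3 CPM. Whether day, culture or library preparation moved them was not tested.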

How the data were processed

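Poly(A) RNA-seq input libraries of Kelly and NGP treated with DMSO for 6 days (3 per line) were compared. The authors deposited raw fragment counts per gene (19923 genes) with GENCODE 33 coordinates, per the file headers; per the submitters' processing notes the tools included FastQC 0.11.5, Trimmomatic 0.36, HISAT2 2.1.0, featureCounts (Subread 1.5.3) and deepTools 2.0 on GRCh38. A strand option was not given in the sources used here. Genes with too few counts were removed (filterByExpr, minimum count 10, total 15), and lines were compared with edgeR 4.0.16 (R 4.3.3) by TMM normalization and the quasi-likelihood test with Benjamini-Hochberg adjustment at 0.05; standard errors are from the same fit. Only these 6 libraries entered that fit; STM2457 libraries had a fit of their own. Differences are not shrunken.

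Arms, blocks and runs used genes with a mean of at least 10 CPM, centred on their median. An adjustment for GC content (GENCODE 44 transcripts) and length used lowess (statsmodels 0.14.6, fraction 0.3). Other settings tried were DESeq2 1.42.0, edgeR with RLE factors or without the count filter, limma 3.58.1 voom, thinning to the lowest total, a replicate block and each library left out. On simulated counts for this comparison of 12940 genes, edgeR recovered 60% of 100 genes changed 2-fold and 91% of 100 changed 4-fold, with 8 false calls among 12740 unchanged genes. The simulation gave both lines the same spread per gene and changed only these genes. In the data the coefficient of variation was 0.0629 in Kelly and 0.243 in NGP, and 60.8% of genes were called. The simulated rates therefore need not hold for this comparison. For a single value, an exact permutation test of 3 against 3 cannot give a two-sided p below 0.1.

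Named genes were the members of the lists, the 10 largest differences per direction among genes of at least 5 CPM in all 6 libraries, the 10 line-restricted genes of highest level per length in each line, and the 3 called genes of highest mean CPM in each block. Other genes of the 12q runs and their edges, ASNS, PSPH and CRABP2 were singled out after their values were seen. The members and lists were chosen with earlier results of these data known. Replicate numbers were not used as pairs in the main fit. Same-numbered deviations correlated at 0.037, 0.043 and 0.02, and those of unlike numbers at -0.038 to 0.004. All are small, but deviations within a line sum to 0, so the values cannot decide whether the libraries were paired. Intervals and floors of 3 counts cover counting error only. Some tested genes are not reported here.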

Additional observations from a re-analysis of the deposited data

Results flagged for a closer look

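The sign of the line difference was opposite in the DMSO and the STM2457 libraries for CRH, the gene of corticotropin-releasing hormone. With DMSO it was 4.76 (Kelly minus NGP, log2, 3 libraries per line), from 15, 15.2 and 10.7 CPM in Kelly and 0, 0.345 and 1.12 CPM in NGP. With STM2457 it was -0.95, from 3.61, 4.2 and 4.26 CPM in Kelly and 9.12, 7.71 and 6.35 CPM in NGP. Within each treatment the lines do not overlap.

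VIM, the intermediate filament gene vimentin, also had opposite signs. The difference was 0.88 with DMSO, where NGP had 36.1, 23.9 and 39.7 CPM, and -1.4 with STM2457, where NGP had 154, 158 and 157 CPM. Kelly stayed between 55.8 and 67.9 CPM in all 6 libraries.

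The same was seen for ASNS, PSPH and CRABP2, which stand among the 21 genes called in opposite directions with DMSO and STM2457. ASNS and PSPH serve asparagine and serine synthesis and CRABP2 carries retinoic acid; the 3 were singled out after their values were seen. ASNS had a mean of 126 CPM in Kelly and, in NGP, 60.3, 55.8 and 67.3 CPM in NGP with DMSO (1.04 ± 0.0952). With STM2457 it had 31.2, 31.6 and 26.9 CPM in Kelly and 38, 40.2 and 45.7 CPM in NGP (-0.46). PSPH differed by 0.50 with DMSO and -0.43 with STM2457. CRABP2 had 78.3, 78.1 and 83.2 CPM in Kelly and 27.9, 37.2 and 29.3 CPM in NGP with DMSO, and 27.6, 29.1 and 21.3 CPM and 63.3, 37.1 and 70.6 CPM with STM2457 (1.36 and -1.12). For none of the 5 genes was the difference between the treatments tested itself.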

How the results depend on the processing

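The 7866 calls became 7861 with RLE size factors, 7885 with DESeq2, 8206 with no low-count filter, 8169 with voom and 7254 after thinning; leaving out 1 library gave 6618 to 9083, and in the STM2457 comparison 5748 to 7611. Replicate numbers were not used as pairs in the main fit, and with the replicate block the calls were 7475 and, with STM2457, 6435. Adjustment for GC content and length put the arms 18p at 1.04, 22q at 0.41, 19q at 0.19, 4q at -0.30, 2q at -0.34, 13q at -0.20 and 6q at -0.09, and reversed PHOX2A (-0.04) and DDX1 (0.18). Leaving out 1 library put 22q at 0.59 to 0.66, 7p at 0.46 to 0.51, 4q at -0.65 to -0.54 and 13q at -0.51 to -0.45. There were 52 broad blocks with a window of 31 genes and 20 with a departure of 0.7, and 16 short runs with a departure of 1.5 and 8 with Kelly at 1 day. Kelly-restricted genes numbered 204 at 5 CPM or more, and NGP-restricted genes 70 at that limit and 14 when off meant under 0.1 CPM. Depth of 5.59 M fragments in NGP replicate 2 limits what low genes can show.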
